A study of Mus musculus with 8 samples.

Results

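The hypoxia-inducible factor (HIF) axis was followed through 10 genes: the HIF alpha subunits Hif1a and Epas1, the HIF prolyl hydroxylases Egln1 and Egln3, and the hypoxia targets Vegfa, Bnip3, Bnip3l, Ndrg1, Ankrd37 and Adm. Members were the non-control probes that carry one of these names on the array or through their accession. All 10 genes were found, with 15 probes, among 27597 gene names on the array. Of these, 9 were well above background in at least 1 group and entered the test among 16078 genes, and Epas1 did not.

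HIF is a transcription factor made of an oxygen-regulated alpha subunit and the stable partner ARNT. In oxygenated cells EGLN enzymes hydroxylate the alpha subunit, VHL binds it and it is degraded, so its activity is set mostly through the protein and less through its transcript. When it accumulates it binds short core motifs and induces genes for vessel growth, mitochondrial turnover, glycolysis and its own brakes, EGLN3 among them. The renal inner medulla, where the collecting duct ends, is poorly oxygenated in the animal. The genes have other regulators too: FOXO factors are known to induce Bnip3, and growth factor signalling many others.

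IMCD3 is an established mouse line of renal epithelium, derived from the collecting duct in the inner medulla. Unstarved cells grew in medium with 10% fetal calf serum and had been replated at 1:10 a day earlier, so that they were not confluent at harvest. Starved cells spent 48 h without serum to make them form cilia, and the labels name no genetic change and no change of oxygen in either group. Serum and cell density therefore differed together, and their parts in any difference cannot be told apart. The 8 samples, 4 per group, were hybridised on 4 Agilent 2-colour arrays, each with 1 starved and 1 unstarved sample. By the titles, arrays 1 and 3 belong to replicate 1 (starved RNA in Cy5) and arrays 2 and 4 to replicate 2 (starved RNA in Cy3), so replicate and dye orientation cannot be told apart.

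Ratios are log2 starved over unstarved, given with limma's moderated standard error (SE, n = 2 replicates). A gene counts as called when its p-value from limma, adjusted over all tested genes, is below 0.05. Levels are log2 intensities of a single channel after normalization, and levels of different probes are not comparable. The arrays of a replicate correlated at 0.991 across genes and those of different replicates at 0.824 to 0.83. Of 14 epithelial and collecting duct markers 13 were well above background, against 0 of 7 endothelial, 3 of 9 fibroblast and 5 of 7 leukocyte markers. A marker counted when any of its probes passed in at least 1 group. Over all probes 59.6% to 62.8% were well above background per array and channel, and the marker counts were not tested against that share.

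To show what the targets carry before their start sites, the 250 bases upstream of the RefSeq start (GRCm38.p6, gene strand, 5′ to 3′) are given for 2 members that rose and 2 that fell. Capitals mark the HIF core motif, written ACGTG or GCGTG on either strand, with matches that overlap around 1 CG counted once. The Bnip3 window lies at chr7:138909507-138909756 (minus strand), that of Ankrd37 at chr8:45999851-46000100 (minus), that of Egln3 at chr12:54203875-54204124 (minus) and that of Adm at chr7:110627407-110627656 (plus).
Bnip3: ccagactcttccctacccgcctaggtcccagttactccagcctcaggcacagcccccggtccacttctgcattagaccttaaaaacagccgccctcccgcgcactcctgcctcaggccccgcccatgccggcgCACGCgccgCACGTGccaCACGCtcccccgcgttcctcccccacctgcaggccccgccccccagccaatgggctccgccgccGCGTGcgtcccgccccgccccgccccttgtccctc
Ankrd37: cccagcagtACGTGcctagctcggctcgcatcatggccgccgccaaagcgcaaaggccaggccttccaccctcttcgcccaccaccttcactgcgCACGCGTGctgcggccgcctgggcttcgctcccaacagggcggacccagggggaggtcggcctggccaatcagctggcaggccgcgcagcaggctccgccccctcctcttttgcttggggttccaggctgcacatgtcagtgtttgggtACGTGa
Egln3: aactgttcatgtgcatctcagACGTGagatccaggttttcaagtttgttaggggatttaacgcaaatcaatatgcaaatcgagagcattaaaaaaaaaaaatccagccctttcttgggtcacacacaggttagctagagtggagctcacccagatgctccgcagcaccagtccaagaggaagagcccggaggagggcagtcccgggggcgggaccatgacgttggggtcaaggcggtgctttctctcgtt
Adm: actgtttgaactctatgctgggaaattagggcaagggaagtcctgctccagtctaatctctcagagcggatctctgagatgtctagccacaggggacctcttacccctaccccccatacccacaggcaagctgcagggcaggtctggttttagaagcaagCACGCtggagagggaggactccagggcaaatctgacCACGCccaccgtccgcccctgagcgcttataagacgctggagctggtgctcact

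The windows of Bnip3 and Ankrd37 each held 4 matches, that of Adm 2 and that of Egln3 1. In Bnip3 1 match is the palindrome CACGTG, whose central C lies 106 bases before the start, and in Ankrd37 the C of the nearest match lies 5 bases before it. Hif1a and Egln1, which were not called, had 2 matches each. Vegfa, which rose, had 0 before its upstream start and 2 before an internal one. Windows were available for 7 of the 10 members, and not for Epas1, Bnip3l and Ndrg1. Bnip3 and Ankrd37 had the most matches of these 7. The windows shown therefore do not compare members that rose with members that fell. The motif is short and common: 38.6% of 32851 promoter windows of this length held at least 1 match and 4.87% held 3 or more. A match is a string of letters and was not tested as a binding site here.

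Of the 9 tested members 5 rose in starved cells (Ndrg1, Bnip3, Ankrd37, Bnip3l and Vegfa), 2 fell (Adm and Egln3) and 2 did not pass (Hif1a and Egln1). Among all tested genes 31.4% were called, 18.1% higher and 13.3% lower. The members' median log2 ratio was 0.41, against 0.0054 over all tested genes. Called changes of at least 2-fold upward were found for 2.7% of all genes and for Ndrg1 and Bnip3 here. These are bulk samples, in which fewer cells of a type and less RNA per cell cannot be told apart. By level, the 2 groups did not overlap over the 4 arrays for 7 of the 9 members, and for 51.8% of all tested genes. The calls depend on the normalization: when the log ratios were only centred on the median of each array, in place of loess, 1.55% of all genes and Ndrg1 alone among the members were called, and the SD shared by all genes rose from 0.179 to 0.608. Other readings of the design moved the background too. With the arrays paired in other ways 88.9% and 87.7% of all genes were called. A dye term called 88.4%, and all 9 tested members. By the titles, the residual spread in these settings is that between arrays of 1 replicate (shared SD 0.0154, 0.0204 and 0.0246). Their calls thus take no account of the spread between replicates. With replicate as a random block 33.4% were called, and with no replicate block 36.5%.

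**Figure D1:**
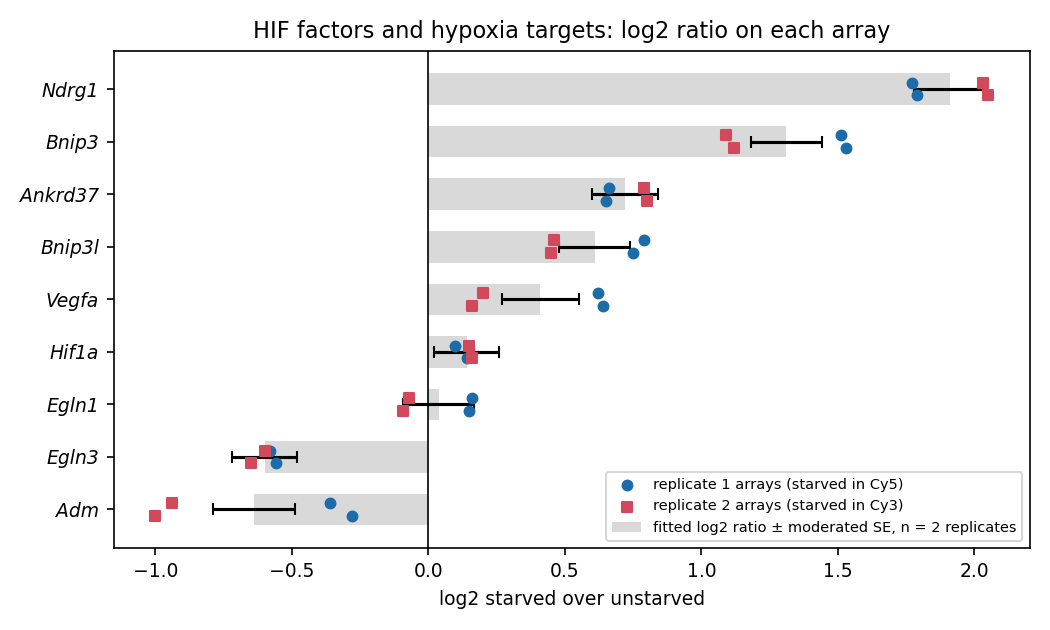
Log2 ratio of starved over unstarved cells (horizontal axis) for the 9 tested members. Bars are the fitted ratios with their moderated SE (n = 2 replicates), and points are single arrays, blue circles for replicate 1 and red squares for replicate 2. The arrays of Ndrg1 lie between 1.77 and 2.05, those of Adm between -1 and -0.28, and those of Egln1 on both sides of 0.

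The transcripts of the factor itself gave no called change. Hif1a, the oxygen-regulated alpha subunit found in most cells, had unstarved levels of 13.44, 13.28, 13.34 and 13.29 on arrays 1 to 4 and starved levels of 13.59, 13.44, 13.44 and 13.45. Every starved level was above the unstarved level of its own array, but the groups touched at 13.44. The log2 ratio was 0.14 ± 0.12 (95% interval -0.12 to 0.4, limma adjusted p = 0.428), so Hif1a did not pass. Its value was -0.0017 with median centring. The ratio is a measure of the transcript and gives no information on the amount of HIF-1 alpha protein.

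Epas1 encodes HIF-2 alpha, the subunit that drives erythropoietin in the kidney. Its 2 probes were not well above background on any of the 4 arrays (0 of 4) in either group. The first read 6.55 to 6.67 in unstarved and 6.75 to 6.92 in starved cells, the second 6.62 to 6.77 and 6.67 to 7.01, while the dimmest probes that counted as above background read 6.61 to 7.01 over arrays and channels. No ratio is given for it. The HIF-2 alpha transcript was thus not measurable at this signal, which does not show that it was absent.

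Of the hydroxylases that mark HIF alpha for degradation, Egln3 was called and Egln1 was not; the difference between them was not tested. Egln1, which encodes PHD2, the main oxygen sensor of most cells, read 12.14, 12.27, 12.12 and 12.13 in unstarved and 12.29, 12.17, 12.28 and 12.06 in starved cells. The groups overlapped. Its log2 ratio was 0.037 ± 0.13 (95% interval -0.23 to 0.31, limma adjusted p = 0.852), positive in replicate 1 (0.16) and negative in replicate 2 (-0.082). A dimmer Egln1 probe had the opposite pattern, -0.17 and -0.16 on the arrays of replicate 1 and 0.12 and 0.076 on those of replicate 2. Neither probe passed.

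Egln3 encodes PHD3, an enzyme that HIF itself induces in many cells. It read 10.47, 10.56, 10.46 and 10.55 in unstarved and 9.91, 9.91, 9.88 and 9.95 in starved cells. All starved levels were below all unstarved ones. Egln3 fell 1.51-fold (log2 ratio -0.6 ± 0.12, limma adjusted p = 0.00142), and its replicates lay close together (-0.57 and -0.63). With median centring it was -0.62 and the call was lost (adjusted p = 1). Its probe lies on chromosome 12 from 55101592 to 55101651 in the array's build, mm8.

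**Figure D2:**
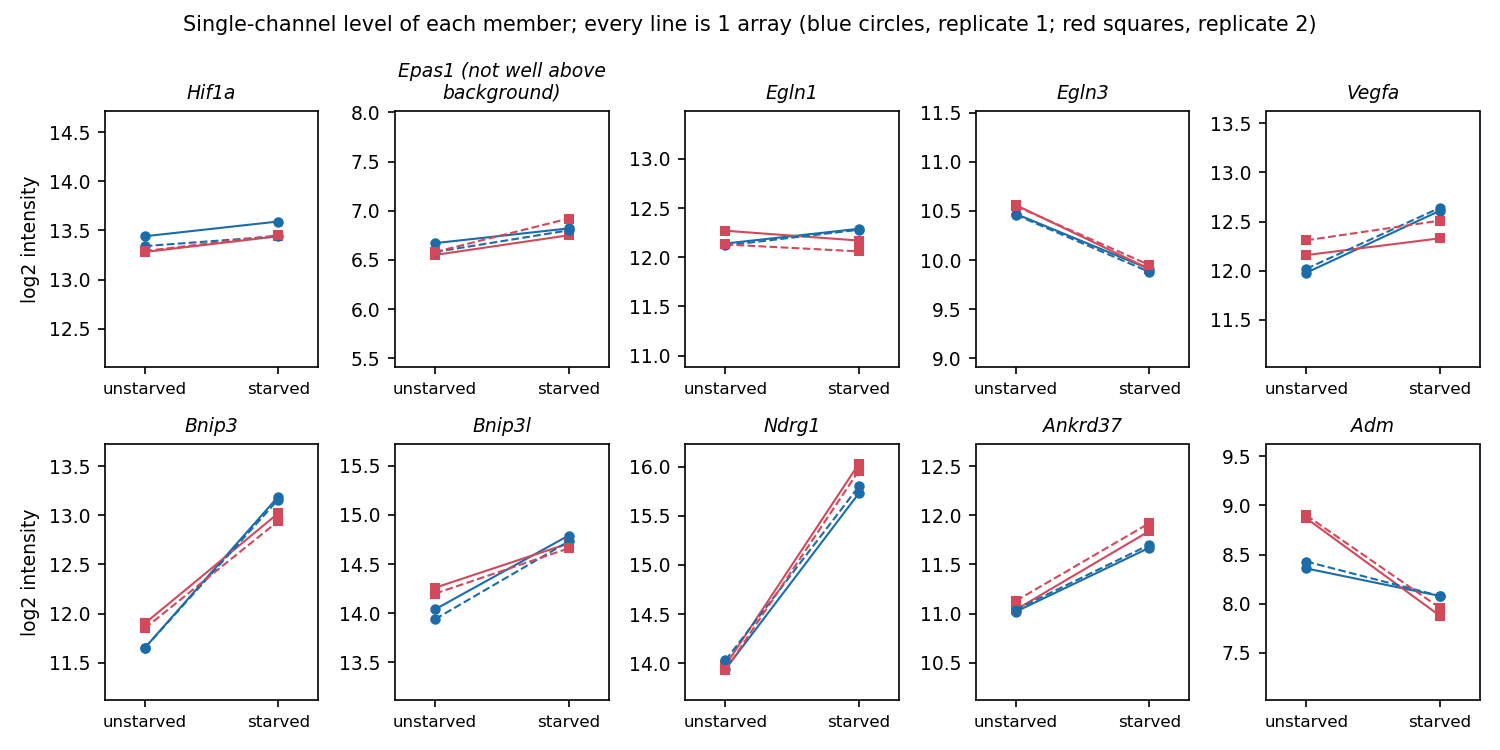
Log2 intensity of each member (vertical axes, all spanning the same range) in unstarved and starved cells. Each line joins the 2 channels of 1 array, blue circles for replicate 1 and red squares for replicate 2, solid for the first and dashed for the second array of a replicate. Lines rise on all 4 arrays for Ndrg1, Bnip3, Ankrd37, Bnip3l and Vegfa, fall for Egln3 and Adm, and cross for Egln1. They also rise on all 4 arrays for Hif1a, which was not called, and for Epas1, which was not well above background.

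Ndrg1 had the largest change of the members. It encodes a cytoplasmic protein of stress and differentiation that is induced in low oxygen and is repressed by MYC proteins. Its unstarved levels were 13.94, 13.98, 14.03 and 13.93, and its starved levels 15.73, 16.03, 15.8 and 15.96. The lowest starved level, 15.73, was well above the highest unstarved level, 14.03. Ndrg1 rose 3.76-fold (log2 ratio 1.91 ± 0.13, limma adjusted p = 1.21e-08) and ranked 60 from the top of 16078 genes. It was the member whose call held in all 16 alternatives with a test, at 1.65 to 1.92. Its probe lies on chromosome 15 from 66759164 to 66759223 (mm8).

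The mitophagy receptors Bnip3 and Bnip3l, outer mitochondrial membrane proteins that tether damaged mitochondria to autophagosomes, rose together. Bnip3 read 11.65, 11.9, 11.65 and 11.85 in unstarved and 13.19, 13.02, 13.16 and 12.94 in starved cells. The starved level was more than 1 log2 unit above the unstarved level on every array, with the wider gap in replicate 1 (1.52) than in replicate 2 (1.1). Bnip3 rose 2.48-fold (log2 ratio 1.31 ± 0.13, limma adjusted p = 1.45e-06) and ranked 218 from the top; with median centring it was 1.22 (adjusted p = 0.171). Its probe lies on chromosome 7 from 138729737 to 138729796 (mm8).

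Bnip3l, also called Nix, had unstarved levels of 14.04, 14.26, 13.94 and 14.2 and starved levels of 14.79, 14.71, 14.73 and 14.66. The groups did not overlap. It rose 1.53-fold (log2 ratio 0.61 ± 0.13, limma adjusted p = 0.00177), and replicate 1 (0.77) was above replicate 2 (0.45). Its second probe gave 0.59. With median centring Bnip3l was at 0.39 and lost its call (adjusted p = 1). A list held other mitophagy receptors, the kinase Pink1 and the NDRG family. Of its 8 tested genes 1 rose and 0 fell, against 18.1% and 13.3% of all tested genes. The gene that rose was Pink1, which marks damaged mitochondria for parkin (1.11 ± 0.13, limma adjusted p = 6.1e-06). With median centring Pink1 was at 1.06 (adjusted p = 0.351). The NDRG relatives Ndrg2 (0.22), Ndrg3 (0.033) and Ndrg4 (0.26) did not pass; these relatives were chosen with their values known.

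Ankrd37, a small ankyrin repeat protein known as a direct HIF-1 target, read 11.02, 11.04, 11.04 and 11.13 in unstarved cells. In starved cells it read 11.67, 11.84, 11.7 and 11.92. All starved levels were above all unstarved ones. It rose 1.65-fold (log2 ratio 0.72 ± 0.12, limma adjusted p = 0.000308), at 0.65 and 0.79 in replicates 1 and 2, and was at 0.67 with median centring (adjusted p = 1). Its promoter window and that of Bnip3 are the ones above with 4 core motifs.

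The secreted members split. Vegfa, the growth factor of vessels, was measured by 3 probes, and the brightest read 11.98, 12.16, 12.02 and 12.31 in unstarved and 12.61, 12.33, 12.64 and 12.51 in starved cells. The groups were separated by a narrow margin, from 12.31 to 12.33. Vegfa rose 1.32-fold (log2 ratio 0.41 ± 0.14, limma adjusted p = 0.0307), mostly through replicate 1 (0.63) and less in replicate 2 (0.18). This was the weakest call among the members. It was lost with Agilent's processed signals (0.42, adjusted p = 0.0539), the deposited value table (0.42, 0.0518) and median centring (0.32, 1).

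The 3 Vegfa probes were all positive but did not give 1 size. A probe printed in 10 spots per array gave 0.17, 0.27, 0.16 and 0.28 on arrays 1 to 4, with an SD between spots of 0.0234 to 0.0326, and its mean of 0.22 did not pass when all probes were tested (limma adjusted p = 0.213). A further probe gave 0.36 (adjusted p = 0.0423). Spots on 1 array share its RNA, so the small spread between them is technical.

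Adm encodes adrenomedullin, a vasodilator peptide and a common hypoxia target. Its unstarved levels were 8.36, 8.87, 8.43 and 8.9 and its starved levels 8.08, 7.88, 8.08 and 7.96. The groups did not overlap, and both arrays of replicate 2 had the wider gap. The signal was dim in starved cells, where the median over all probes was 8 to 8.02. Adm fell 1.56-fold (log2 ratio -0.64 ± 0.15, limma adjusted p = 0.0031), with a small fall in replicate 1 (-0.32) and a larger one in replicate 2 (-0.97). The fall was larger with Agilent's processed signals (-0.95) and with the deposited value table (-0.95), and with median centring it was -0.67 without a call (adjusted p = 1). Its probe lies on chromosome 7 from 110420751 to 110420810 (mm8).

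Receptors and other ligands of both peptides were followed as a list. Here 2 of 10 tested genes rose and 3 fell, against 18.1% and 13.3% of all tested genes. The list's median was -0.16. Ramp2, which gives the calcitonin receptor-like receptor its affinity for adrenomedullin, rose (1.23 ± 0.14, limma adjusted p = 4.08e-06), and the alternative partner Ramp3 fell (-0.9 ± 0.12, adjusted p = 3.43e-05). The 5 probes of Ramp2 ranged from 0.1 to 1.65. The receptor gene Calcrl and the VEGF receptor gene Kdr did not clear the background rule in starved or unstarved cells, and are named with that known. Flt1, which encodes a VEGF receptor that can act as a decoy, fell (-1.02). Vegfc, a lymphatic growth factor, fell too (-0.83, and -1.38 with Agilent's processed signals or the deposited value table). The Vegfc signal was dim, with mean levels of 8.21 in unstarved and 7.38 in starved cells. The dimmest probes that counted as above background read 6.61 to 7.01. These 4 lost their calls with median centring, at adjusted p = 0.414 for Ramp2, 0.459 for Ramp3, 0.363 for Flt1 and 0.743 for Vegfc.

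**Figure D3:**
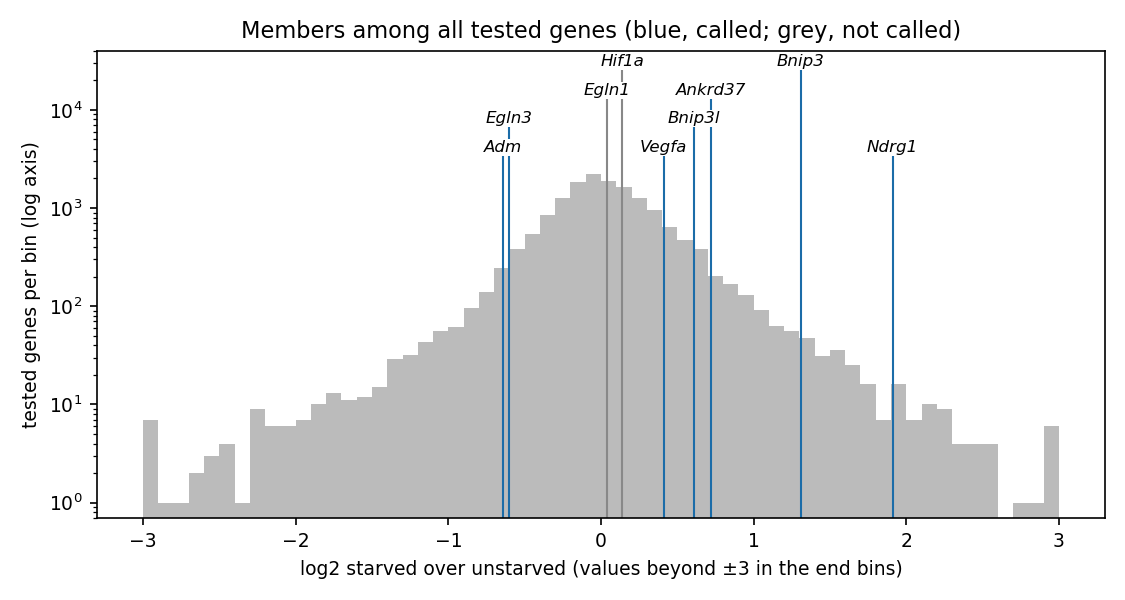
Histogram of the log2 ratio of starved over unstarved cells over 16078 tested genes (log vertical axis) with the 9 tested members as lines, blue where called and grey where not. Ndrg1 and Bnip3 stand in the right tail at 1.91 and 1.31, while Hif1a and Egln1 stand near 0.

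The rest of the oxygen-sensing machinery showed no called change when the labels' replicates were followed. Of 16 tested genes for partner subunits, VHL complex proteins, hydroxylases and coactivators 0 rose and 0 fell in limma. Over all tested genes 18.1% rose and 13.3% fell. The list had a median of 0.088 and a range of -0.3 to 0.27. Arnt, the common partner, had 0.19 ± 0.12 (limma adjusted p = 0.268; its 4 probes spread from 0.041 to 0.54), Vhl 0.17 (0.32), Egln2, the remaining HIF prolyl hydroxylase, 0.19 (0.279), and Hif3a, an inhibitory relative, -0.077 (0.677). Hif1an, the asparaginyl hydroxylase that blocks coactivator binding, had 0.083 (adjusted p = 0.728), from -0.3 in replicate 1 and 0.47 in replicate 2. Its 3 probes ranged from -0.43 to 0.083, and their mean was -0.1. These 5 genes did pass with both other pairings of the arrays and with the dye term, at the same ratios; with the dye term, for example, limma's adjusted p was 4.71e-05 for Arnt and 0.0232 for Hif3a. Those settings called 87.7% to 88.9% of all tested genes, and by the titles they take no account of the spread between replicates.

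Other established HIF targets moved in both directions. Outside glycolysis, 9 of 30 tested rose and 7 fell, with a median of -0.066, against 18.1% and 13.3% of all tested genes. Ddit4, an inhibitor of mTORC1 signalling (2.38 ± 0.12), and Stc2, a secreted glycoprotein of calcium and phosphate balance (1.19), rose most. Angptl4, which inhibits lipoprotein lipase, fell most (-1.77 ± 0.13). Stc2 lost its call with median centring (adjusted p = 0.278), and Ddit4 and Angptl4 kept theirs.

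Among 19 tested glycolytic HIF targets 4 rose and 4 fell, with a median of 0.028, against 18.1% and 13.3% of all tested genes. Aldoc, an aldolase (1.7 ± 0.12), and Eno2, an enolase (1.24), rose, while Pfkfb3, which makes the activator of phosphofructokinase (-1.63 ± 0.13), and Hk2, a hexokinase (-0.82), fell. The second probe of Pfkfb3 gave -0.52, and the mean of its probes was -1.08 (limma adjusted p = 9.43e-05); the second probe of Aldoc gave 0.94. Eno2 and Hk2 lost their calls with median centring (adjusted p = 0.174 and 0.278).

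**Figure D4:**
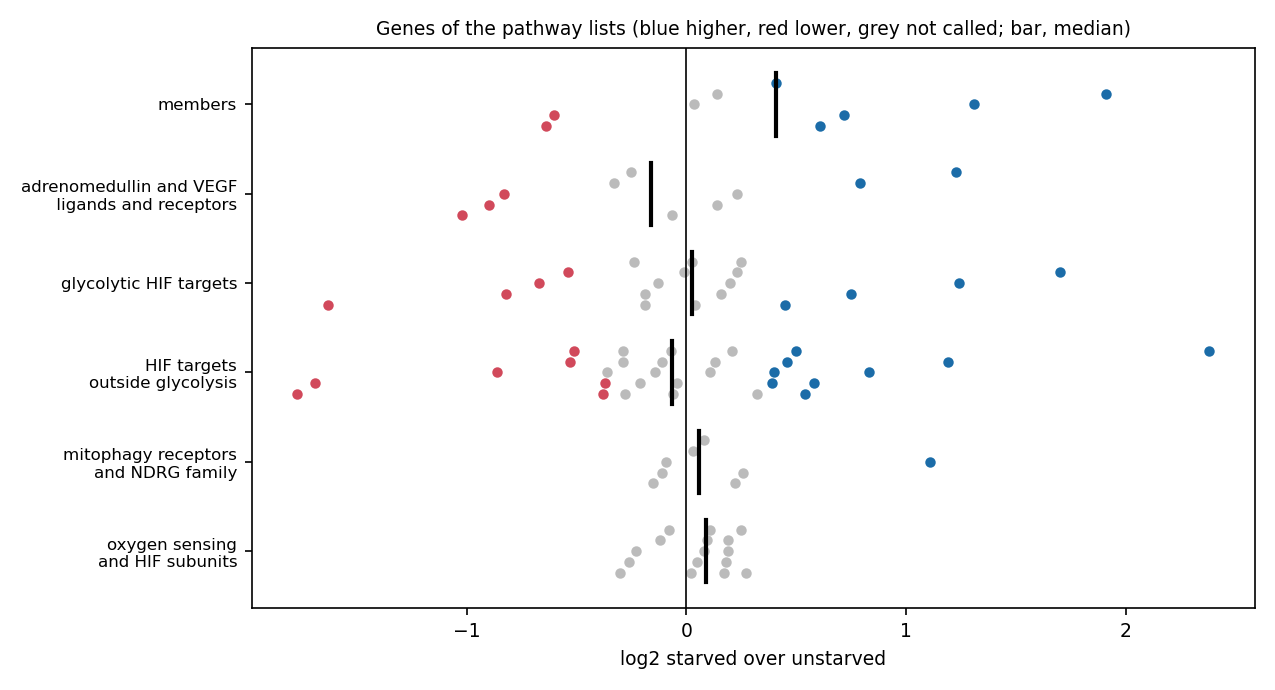
Log2 ratio of starved over unstarved cells (horizontal axis) for the tested members and for the tested genes of 5 lists of the HIF axis. Each point is 1 gene, blue where called higher, red where called lower and grey where not called, and the black bar is the median. All 16 oxygen-sensing genes are grey, between -0.3 and 0.27, while the target lists spread to both sides.

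**Figure D5:**
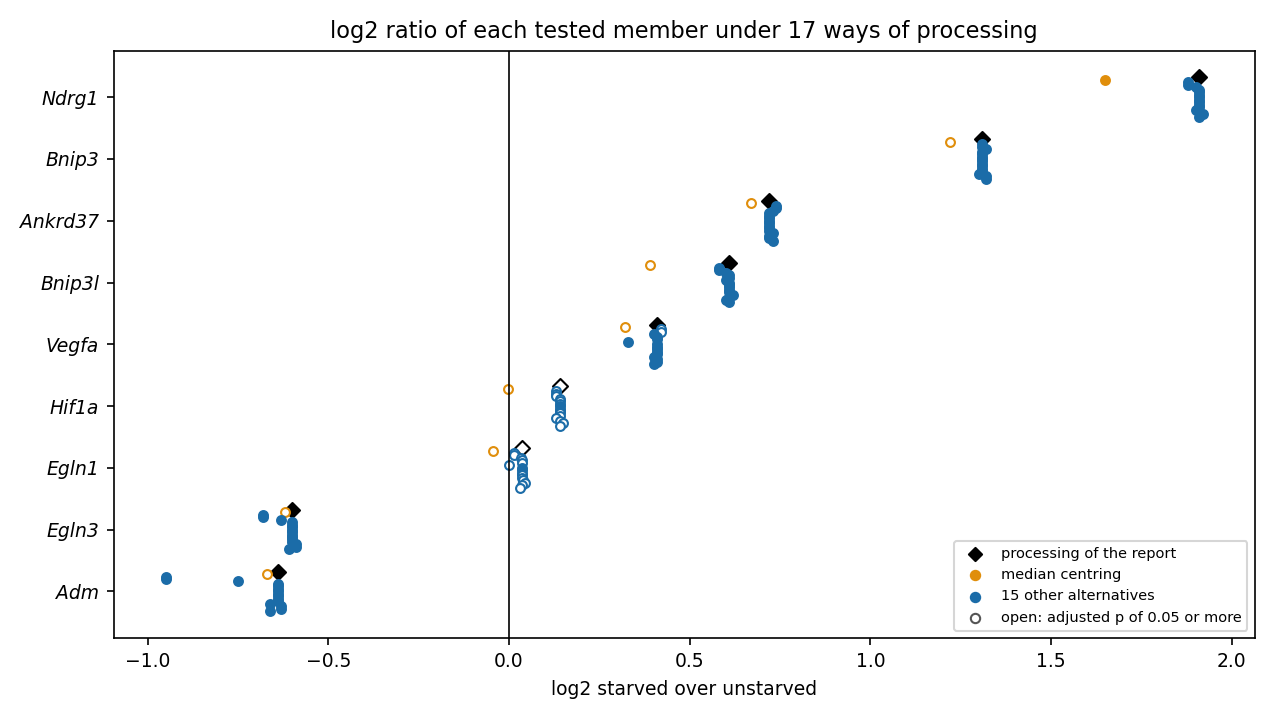
Log2 ratio of each tested member (horizontal axis) under the processing of the report (black diamonds), median centring (orange) and the other alternatives with a test (blue). Filled symbols passed an adjusted p of 0.05 and open ones did not. Under median centring the symbol of Ndrg1 is filled at 1.65 and those of the other 8 members are open.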

How the data were processed

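Per the file headers, Agilent Feature Extraction 9.5.3.1 made the deposited intensity of each spot, its mean signal and the median of its local background. Both samples of an array carry the same file (4 of 4 arrays), and each sample was read in the channel of its label's dye. The deposited processed intensity values are background-subtracted and dye-normalized, per the file headers. A further deposited table holds intensity values whose scaling by the authors is unknown here; its medians are 74.7 to 77.1, its lowest value is 15, and its log2 ratios follow the processed signals (r of at least 0.991 over tested probes).

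In limma 3.58.1 (R 4.3.3), normexp with an offset of 50 and within-array loess were applied to the mean signals, with 1639 control spots and 583 outlier-marked spots (over 4 arrays) given no weight; 0 spots were saturated. Probes well above background on all 4 arrays of a group, in more than 0.5 of their spots, were tested, and the brightest stood for its gene. Names came from RefSeq accessions for 24375 of 41174 probes, from symbols for 6301 and synonyms for 2426; 8072 kept the array's name. Arrays of a replicate were averaged, and lmFit and eBayes were run on 2 values per gene, which leaves 1 residual degree of freedom and 14.9 prior ones. On simulated data this fit found large changes with the right sign, but its prior degrees of freedom varied widely and false calls could exceed the nominal rate. The simulation changed far fewer genes than were called here and held no dye effect, so it checks only that the fit runs correctly. Precision is limited by the 2 replicates, since arrays of a replicate differ little (r = 0.991). Single-channel levels were taken after loess and Aquantile.

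The log2 ratio within an array pairs the samples that were hybridised together, as the series text states. Deviations of same-numbered samples correlated at -0.298, and since these carry opposite dyes the value does not test the pairing. The series text also speaks of a dye swap within each pair, at odds with the labels, which were followed. The titles name replicates 1 and 2, called biological in the series text. All 4 arrays share a slide and a scan, so no such batch could be tested.

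Members and lists were chosen with earlier results of these data known. All members are named, as are up to 4 called genes of largest change per list with 1 sign on all arrays (1 such gene is not reported here), and Arnt, Vhl, Egln2, Hif1an and Hif3a; no genes were ranked by likeness to a member, since 2 replicates are too few. Core motifs were searched in RefSeq promoters (GRCm38.p6).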

Additional observations from a re-analysis of the deposited data

Results flagged for a closer look

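In 20 sets of 4 levels (10 members in 2 groups) each set was screened for 1 array far from the rest. With independent values chance alone picks about 1 in 20. The 4 levels here come from 2 replicates with 2 arrays each and are not independent, so that rate need not hold. Hif1a in starved cells was picked, with 13.59 on array 1 against 13.44, 13.44 and 13.45 (gap over range 0.947). Egln1 in unstarved cells was picked too, with 12.27 on array 2 against 12.12 to 12.14 (0.845). Both gaps are small on the log2 scale, and neither gene was called.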

How the results depend on the processing

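Median centring moved the counts of all genes, members and list genes by more than 1.5 times. The other array pairings and the dye term did so for all genes and list genes. Members called in each of these 3 settings were 7 higher and 2 lower, which is within 1.5 times. Median centring, in place of loess, called 249 genes in place of 5048, 1 member higher and 0 lower in place of 5 and 2, and 2 list genes higher and 3 lower in place of 16 and 14; Hif1a (-0.0017) and Egln1 (-0.044) changed sign, as did Hif1an with the mean of all probes (-0.1). Other ways of pairing the arrays called most genes, 14296 for arrays 1+2 with 3+4 and 14102 for 1+4 with 2+3, and a dye term 14209. The list genes then called were 40 higher and 37 lower, 39 and 38, and 39 and 37. Hif1a, Egln1, Arnt, Vhl, Egln2, Hif1an and Hif3a passed in these 3 settings, which call 87.7% to 88.9% of all genes. By the titles, these settings measure the spread between arrays of a replicate and not that between replicates. With no replicate block, as 2 unpaired groups of single-channel values, 5861 genes passed, and with replicate as a random block 5363; neither changed a member's call. Leaving out 1 array changed no member's call. With 1 replicate left there is no test, and Adm ranged from -0.97 to -0.32, Vegfa from 0.18 to 0.63, Bnip3 from 1.1 to 1.52 and Egln1 from -0.082 to 0.16. Signal over background limits Epas1, which has no ratio.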
